A study of Mchenga conophoros with 13 samples.

Results

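Spots rich in myelin transcripts were examined in Visium sections of the telencephalon, the front part of the brain, of adult male Mchenga conophoros, a Lake Malawi cichlid whose males build sand castles for courtship. In each of 13 capture areas, spots with at least 500 unique molecular identifiers (UMIs, each counting 1 captured RNA molecule) were ranked by the share of their UMIs that came from 3 myelin genes, mpz, plp1b (LOC101464213) and mbpa (LOC101477913). The highest 5% of each capture area were taken, and ties were settled by file order. This gave 330 myelin-rich spots among 6755 spots in all, with 6294 other spots and 131 spots under the minimum. Oligodendrocytes are the glial cells that wrap axons of the central nervous system in myelin, a stack of lipid-rich membrane layers held together by a small set of abundant proteins. Myelin speeds the conduction of action potentials between the nodes of Ranvier, and oligodendrocytes arise from dividing precursor cells that persist in the adult brain. In fishes, mpz is a main protein of central myelin, whereas mammals use it in peripheral nerves.

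The sections came from 2 building males, which were constructing a castle when they were collected, and 2 control males, which were not. The study's methods describe them as 2 pairs of a building and a control male of matched size, and neither the methods nor the labels say which males formed a pair. All 4 were adult males older than 180 days, and the labels give no transgene or drug treatment. Sections were coronal and 10 µm thick, and a spot measures 55 µm across, so it can hold several cells of different types and is described by its genes rather than as a cell type. Males building 2, control 1 and control 2 had 4 capture areas each and building 1 had 1, its area C, so the position of its section and the animal itself cannot be told apart. Each male is 1 animal and counts once in every test but 1 alternative. That alternative takes the capture areas as the samples, with the male as a block. Myelin-rich spots numbered 40 of 797 in building 1, 134 of 2677 in building 2, 74 of 1496 in control 1 and 82 of 1654 in control 2. The myelin-rich spots held 3.12% of all UMIs, and total UMIs per capture area ran from 673104 to 7356317. Capture area A of control 2 stood apart from the rest by its myelin gene rate. Of 2717 distinct spot barcodes, 1631 occurred in more than 1 capture area, as every capture area uses positions from the same printed set, and 14 of 315 myelin-rich barcodes were myelin-rich in more than 1 area.

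By construction, the 3 chosen genes were high in the myelin-rich spots, and their values are given as a description with no test. Their summed rate, as a mean over the capture areas of each male, was 35.9 per 10000 UMIs in building 1, 57.0 in building 2, 42.3 in control 1 and 60.6 in control 2 in the myelin-rich spots, against 1.97 in building 1, 4.86 in building 2, 2.75 in control 1 and 2.64 in control 2 in the other spots. The ratio averaged 19.2 ± 5.51 (SD, n = 4 males) and ran from 9.5 to 59.8 over the 13 capture areas. Control 2 area A had 146 per 10000 in its myelin-rich spots, and without it the rate of control 2 was 32.2 in the myelin-rich and 2.71 in the other spots, the lowest of the males in the myelin-rich spots rather than the highest. Encoding the adhesion protein that joins neighbouring membrane layers, mpz stood, in counts per 1000000 UMIs (CPM), at 856 CPM in building 1, 1183 in building 2, 858 in control 1 and 767 in control 2 in the myelin-rich spots, against 48.0 in building 1, 108 in building 2, 48.7 in control 1 and 65.0 in control 2 in the other spots. For plp1b, a proteolipid protein gene, the myelin-rich spots had 877 to 1614 CPM and the other spots 42.1 to 138 CPM over the 4 males. For mbpa, which encodes the myelin basic protein that compacts the inner membrane faces, the ranges were 1588 to 2777 CPM in the myelin-rich spots and 102 to 245 CPM in the other spots.

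The myelin-rich spots did not hold most of the myelin RNA. They held 29.0% of the UMIs of the 3 genes, and 3670 of the 6294 other spots (58.3%) had at least 1 such UMI. A myelin-rich spot carried 2 to 97 UMIs of the 3 genes, with a median of 17.5. All 3 genes were found in 272 of the 330 spots, 52 had 2 of them and 6 had 1. The boundary was close, since the last spot inside and the first outside had rates of 21.1 and 20.02 per 10000 in the capture area of building 1. It was widest in control 2 area A, at 68.2 inside and 55.3 outside. When the highest 5% were taken by 1 gene alone, 207 of 330 spots chosen by mpz, 218 chosen by plp1b and 245 chosen by mbpa were among the myelin-rich spots.

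**Figure D1:**
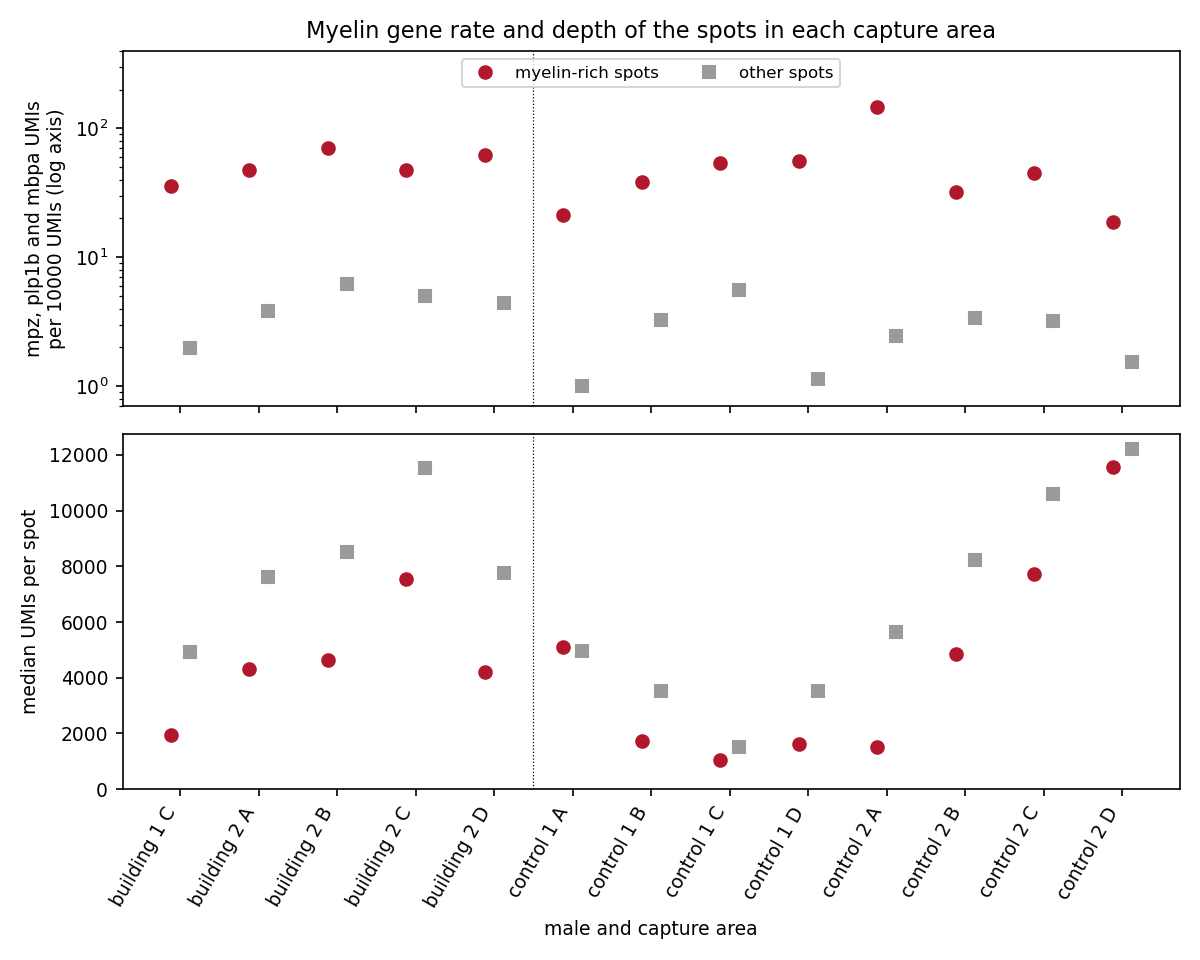
Summed rate of mpz, plp1b and mbpa per 10000 UMIs (y axis, log scale) in the myelin-rich spots and in the other spots of each of the 13 capture areas, by male. These genes chose the spots, so the gap is by construction, and control 2 area A lies highest at 145.8 per 10000.

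Genes that had no part in the choice of spots were then used to ask whether the label fits. Each of the 3 chosen genes was tested in spots picked by the other 2 alone, 330 each time. Picked without it, mpz had 621 to 1069 CPM in the myelin-rich spots and 52.8 to 111 CPM in the other spots over the 4 males, a log2 fold change of 3.47 (SE 0.128, adjusted p = 8.09e-57, edgeR quasi-likelihood test). Picked without plp1b, the spots showed plp1b at a log2 fold change of 3.72 (SE 0.113, adjusted p = 2.56e-37, edgeR). The same test of mbpa gave 3.37 (SE 0.117, adjusted p = 1.59e-20, edgeR). The 3 tests are separate fits, each with its own spread pooled over genes, so their p-values cannot be ranked against each other. The groups did not overlap for any of these genes. Of the oligodendrocyte markers outside the choice, sox10, olig2, myrf, ugt8, cd59, cldnk and bcas1, all 7 were called higher in the myelin-rich spots in the comparison described next. They are members of longer lists. Markers and lists were chosen with earlier results of these data known, so they are no independent check of the label. Of these lists, 8 of 13 tested myelin and oligodendrocyte genes (61.5%) and 2 of 6 tested lineage genes (33.3%) were called higher, against 3.04% of all genes. Among the listed genes not called were cnp, at a log2 fold change of -0.10, and tppp, at 0.18. The gene ugt8 had no UMI in the myelin-rich spots of building 1. The spots also held neuronal RNA, with snap25, a gene of synaptic vesicle fusion, at 4935 to 5654 CPM in the myelin-rich spots and 5168 to 5404 CPM in the other spots.

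Counts were summed per male over the myelin-rich and over the other spots and compared within males, with the 3 chosen genes left out. Of 12355 genes tested, 571 passed an adjusted p of 0.05 in the edgeR quasi-likelihood test with Benjamini-Hochberg adjustment (4.62%). Of these, 375 were higher (3.04% of genes tested) and 196 were lower (1.59%) in the myelin-rich spots. The median log2 fold change over all tested genes was -0.03. Genes called higher in all 13 capture areas numbered 43 and genes called lower in all 13 numbered 49. A capture area with no UMI of a gene in its myelin-rich spots counts as lower where its other spots have any. In such sums, more cells of a type and more RNA per cell cannot be told apart. The count depended on the setting, with 271 genes called by DESeq2 (219 higher, 52 lower), 73 with every spot thinned to 1000 UMIs (61 higher, 12 lower) and 87 with capture areas as the samples in limma (84 higher, 3 lower). The thinned setting also chose the spots anew from the thinned counts, and 207 of its 321 spots were among the 330, so depth and choice of spots change together there. It was 267 without building 2 and 335 without control 2. The fit pools the spread between males over genes, and a robust version, in which genes whose males vary widely keep more of their own spread, called 637 genes, 554 of them among the 571.

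**Figure D2:**
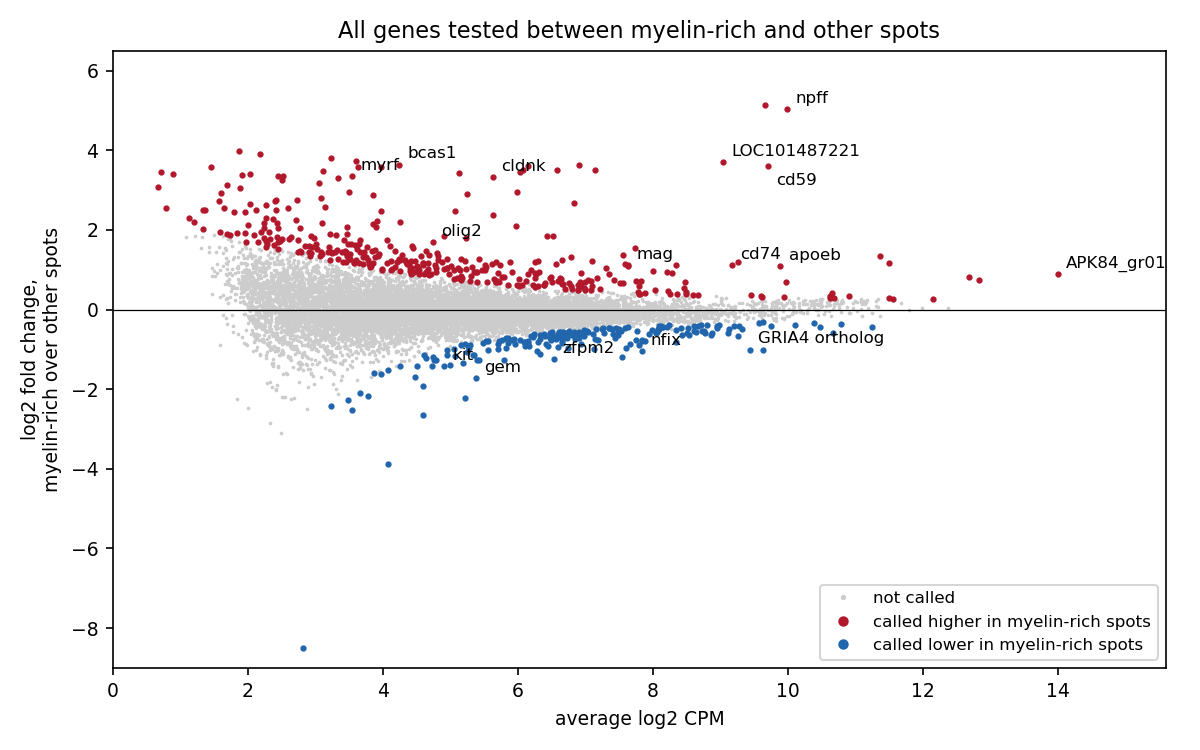
Log2 fold change of myelin-rich over other spots (y axis) against mean level on a log scale (x axis) for the genes tested, with genes past an adjusted p of 0.05 (edgeR) coloured. The 375 higher and 196 lower genes lie above and below 0, with oligodendrocyte genes such as cd59 at 3.59 among the highest.

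Myelin and oligodendrocyte genes were higher in the myelin-rich spots where they were called. Of 41 names looked for, 18 were in the feature table and 13 were tested, of which 8 were higher (61.5%, against 3.04% of all genes) and 0 lower, with a median log2 fold change of 2.74. The gene with the smallest p-value was cd59, a membrane-anchored complement inhibitor known from zebrafish as a marker of myelinating glia. Its level was 1099 CPM in building 1, 2433 in building 2, 1294 in control 1 and 1582 in control 2 in the myelin-rich spots, against 80.8 in building 1, 235 in building 2, 115 in control 1 and 130.1 in control 2 in the other spots. That is a log2 fold change of 3.59 (SE 0.104, adjusted p = 1.02e-42, edgeR), with higher values in 13 of 13 capture areas, and the lowest value of the myelin-rich spots lay above the highest of the other spots. In control 2 area A it reached 7687 CPM, and without that area its log2 fold change was 3.49. For cldnk, a claudin of the myelin sheath in zebrafish, the myelin-rich spots had 116 CPM in building 1, 249.5 in building 2, 142 in control 1 and 134 in control 2, against 11.01 in building 1, 26.4 in building 2, 13.4 in control 1 and 15.4 in control 2 in the other spots. Its log2 fold change was 3.32 (SE 0.176, adjusted p = 1.4e-26, edgeR), and it was higher in 13 of 13 areas. For bcas1, which in mammals marks oligodendrocytes that have begun to myelinate, values were 106 CPM in building 1, 100.3 in building 2, 108 in control 1 and 91.0 in control 2 in the myelin-rich spots and 4.85 in building 1, 12.1 in building 2, 5.24 in control 1 and 8.15 in control 2 in the other spots. The log2 fold change of bcas1 was 3.64 (SE 0.245, adjusted p = 1.09e-20, edgeR). Area A of control 2 reached 693 CPM of cldnk too, and without it control 2 had 102 CPM and the log2 fold change of cldnk was 3.19.

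The lipid enzyme genes ugt8 and fa2h and the adhesion gene mag were also called higher. The gene ugt8 makes galactocerebroside, the main glycolipid of myelin. It was at 0 CPM in building 1, 68.2 in building 2, 73.5 in control 1 and 37.1 in control 2 in the myelin-rich spots, where 0 of 94631 UMIs in building 1 allows up to 31.7 CPM (3 counts), against 6.83 in building 1, 8.3 in building 2, 6.09 in control 1 and 5.67 in control 2 in the other spots. The fit gave a log2 fold change of 2.96 (SE 0.315, adjusted p = 1.32e-11, edgeR) and no direction could be read in building 1. For fa2h, which hydroxylates the fatty acids of myelin glycolipids, the myelin-rich spots had 14.7 to 52.8 CPM and the other spots 2.67 to 3.98 CPM, a log2 fold change of 3.37 (SE 0.384, adjusted p = 1.54e-10, edgeR). The smallest change among the called members was that of mag, an adhesion protein on the inner myelin surface that faces the axon. Its level was 317 CPM in building 1, 399 in building 2, 211 in control 1 and 251 in control 2 in the myelin-rich spots and 116 in building 1, 150.2 in building 2, 169 in control 1 and 134 in control 2 in the other spots. The log2 fold change of mag was 1.1 (SE 0.135, adjusted p = 1.76e-09, edgeR), and the groups did not overlap although the gap was narrow. In control 2 area A mag reached 796 CPM, and without that area its log2 fold change was 1.13. The remaining called member, evi2b, had 10.6 to 33.4 CPM in the myelin-rich spots and 3.26 to 4.15 CPM in the other spots (log2 fold change 2.74, SE 0.408).

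Other genes known from myelin did not pass the test. They were cnp, a phosphodiesterase of non-compact myelin, tppp, a tubulin-polymerizing protein of oligodendrocytes, galc, which degrades galactocerebroside, pmp22, a peripheral myelin protein, and tmem88b. Their log2 fold changes were -0.10 for cnp, 0.18 for tppp, 0.41 for galc, 0.54 for pmp22 and 0.39 for tmem88b. For tppp, the myelin-rich spots had 201 to 412 CPM and the other spots 189 to 268 CPM, so the ranges overlapped. The other 5 members of the feature table were too rare to test. Among them adamts14 had 0 to 20.6 CPM in the myelin-rich spots and 0.587 to 1.93 CPM in the other spots, and nkx6-2, a transcription factor of the lineage, had 0 to 18.0 CPM in the myelin-rich spots and 0 to 2.05 CPM in the other spots. Those values rest on 30 and 20 UMIs in the myelin-rich spots, while cd82a, gal3st1 and anln had 8, 1 and 0.

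**Figure D3:**
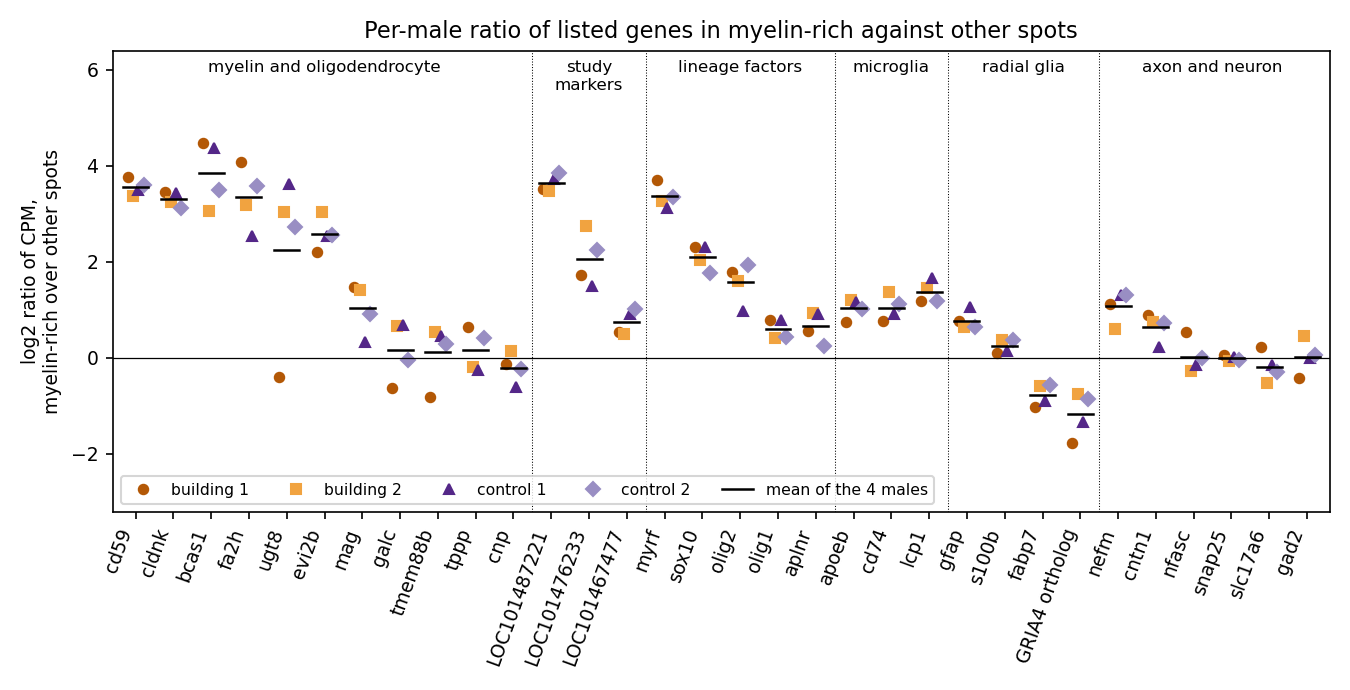
Log2 ratio of the level in myelin-rich over other spots (y axis) for oligodendrocyte genes and genes of other cell types, with 1 point per male and the mean as a bar. The points of cd59, cldnk and LOC101487221 lie close together well above 0, and those of snap25 lie near 0.

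The 10 genes with the highest fold change, among called genes of at least 20 CPM that were higher in all 4 males and at least 11 capture areas, were led by features without a gene name. They were LOC101485490, LOC101475273, mal2, LOC106674905, LOC101487221, LOC101475289, bcas1, LOC101473065, cd59 and LOC101468834, with log2 fold changes from 3.58 to 3.97. The annotation used here names mal2, an integral membrane protein of lipid-rich membrane domains in mammals, bcas1 and cd59, and the other 7 carry a number only. The deepest of the unnamed ones, LOC101487221, is among the genes the study listed for its mature oligodendrocyte cluster. Its level was 803 CPM in building 1, 1588 in building 2, 985 in control 1 and 932 in control 2 in the myelin-rich spots, against 70.7 in building 1, 142 in building 2, 74.3 in control 1 and 64.8 in control 2 in the other spots. The log2 fold change of LOC101487221 was 3.70 (SE 0.113, adjusted p = 2.01e-41, edgeR), with higher values in 13 of 13 areas. It reached 5852 CPM in control 2 area A, and without that area its log2 fold change was 3.58. LOC101475289 had 190.2 to 467 CPM in the myelin-rich and 14.5 to 43.0 CPM in the other spots, and LOC101473065 had 137 to 338 CPM in the myelin-rich and 12.1 to 30.6 CPM in the other spots. For mal2 the myelin-rich spots had 84.5 CPM in building 1, 73.3 in building 2, 34.3 in control 1 and 53.8 in control 2, against 1.1 in building 1, 6.12 in building 2, 4.57 in control 1 and 4.37 in control 2 in the other spots. That all 10 were higher in every male follows from the rule that picked them.

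Transcription factors and receptors of the lineage were looked up next. Of 16 names looked for, 9 were in the table and 6 were tested, with 2 higher (33.3%, against 3.04% of all genes), 0 lower and a median log2 fold change of 0.79. Counted with the myelin genes above, myrf is the factor that switches on myelin genes. It had 42.3 CPM in building 1, 79.7 in building 2, 44.1 in control 1 and 57.6 in control 2 in the myelin-rich spots, against 3.52 in building 1, 8.34 in building 2, 5.24 in control 1 and 5.67 in control 2 in the other spots (log2 fold change 3.35, SE 0.289, adjusted p = 1.79e-15, edgeR). For sox10, a factor of precursors and oligodendrocytes alike, the values were 42.3 CPM in building 1, 50.2 in building 2, 53.9 in control 1 and 35.3 in control 2 in the myelin-rich spots and 9.47 in building 1, 12.2 in building 2, 11.3 in control 1 and 10.6 in control 2 in the other spots. Its log2 fold change was 2.07 (SE 0.283, adjusted p = 5.3e-08, edgeR). The lineage factor olig2 had 52.8 CPM in building 1, 72.0 in building 2, 29.4 in control 1 and 78.0 in control 2 in the myelin-rich spots and 16.7 in building 1, 24.0 in building 2, 16.1 in control 1 and 20.7 in control 2 in the other spots, a log2 fold change of 1.70 (SE 0.229, adjusted p = 3.46e-08, edgeR). No male's myelin-rich spots overlapped any male's other spots for myrf, sox10 or olig2. The call of olig2 was lost at 1000 UMIs per spot (adjusted p = 0.0872) and with capture areas as samples (adjusted p = 0.278).

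Of the genes known from precursor cells, olig1, aplnr, pdgfra and gpr17 did not pass the test. Here olig1 is the feature of that name, and no value is given for another feature set down as olig1 among the precursor markers. The precursor factor olig1 had 31.7 CPM in building 1, 28.3 in building 2, 34.3 in control 1 and 29.7 in control 2 in the myelin-rich spots and 21.4 in building 1, 21.6 in building 2, 21.3 in control 1 and 22.5 in control 2 in the other spots, a log2 fold change of 0.53 (SE 0.277, adjusted p = 0.39, edgeR). The sets were apart, but by little next to the error on 48 UMIs. For aplnr, the apelin receptor gene used here as a precursor marker, the ranges were 34.7 to 52.8 CPM in the myelin-rich spots and 18.4 to 39.4 CPM in the other spots (log2 fold change 0.68, SE 0.247, adjusted p = 0.112, edgeR). The platelet-derived growth factor receptor pdgfra and the receptor gpr17, which marks cells committed to differentiate in mammals, gave 0.36 (SE 0.606) and 0.91 (SE 0.553) on 10 and 13 UMIs in the myelin-rich spots. The marker genes that the study gives for its oligodendrocyte and precursor clusters were read too. All 4 tested oligodendrocyte cluster markers were higher (100%, against 3.04% of all genes), LOC101467477, myrf, LOC101476233 and LOC101487221. Of these, myrf is also on the myelin list. Their values ran from a log2 fold change of 0.79 for LOC101467477 to 3.70 for LOC101487221, and LOC101467477 lost its call under 8 alternatives. Of the 2 tested precursor markers, sema5a had a log2 fold change of 0.18 (adjusted p = 0.653, edgeR) and the other is LOC101467477, which both clusters share.

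The levels followed the rank of the spots. With the spots of each capture area ordered by the rate of the 3 chosen genes, cd59 averaged 2103 ± 796 CPM (SD, n = 4 males) in the highest 2.5%, 1166 ± 393 in the next 2.5% and 831 ± 280.1 between 5% and 10%. It went on to 439 ± 233 between 10% and 20%, 196 ± 122 between 20% and 40% and 53.5 ± 19.5 in the lowest 60% of spots, so the level was lower in each bin than in the one before. The same bins gave 371 ± 93.4, 228 ± 87.9, 223 ± 35.5, 149 ± 25.7, 138 ± 14.5 and 139 ± 29.5 CPM for mag, which was flat below the highest 10%. For olig1 the highest bin had 42.4 ± 21.1 and the lowest 18.0 ± 1.46 CPM, and for aplnr 57.0 ± 33.2 and 24.1 ± 7.44 CPM. For snap25 the highest bin had 4774 ± 173 and the lowest 5191 ± 90.1 CPM. The bins were made from the same ranking that chose the spots, so they are a description with no test.

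**Figure D4:**
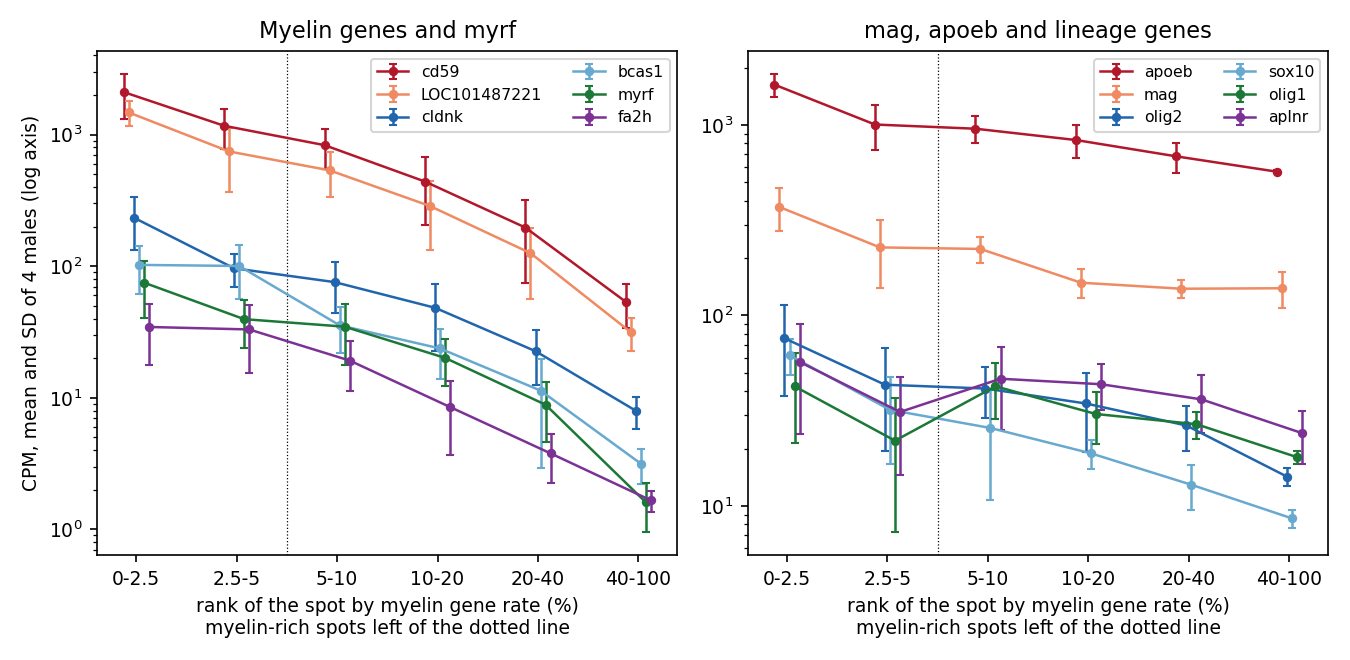
Mean level over the 4 males in CPM (y axis, log scale, bars SD) by rank of the spots in the rate of mpz, plp1b and mbpa (x axis, percent of spots from the highest). The level of cd59 declines over all bins to 53.5 CPM in the lowest 60%, and mag is flat below the highest 10%.

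Microglia and macrophage genes were the other glial group with many calls. Of 25 names, 10 were in the table and 9 were tested, with 6 higher (66.7%, against 3.04% of all genes), 0 lower and a median log2 fold change of 1.12. The apolipoprotein E gene apoeb, a lipid carrier made by microglia in zebrafish, had 1025 CPM in building 1, 1521 in building 2, 1373 in control 1 and 1242 in control 2 in the myelin-rich spots, against 613 in building 1, 660.4 in building 2, 615 in control 1 and 616 in control 2 in the other spots. Its log2 fold change was 1.1 (SE 0.0981, adjusted p = 8.96e-15, edgeR), with higher values in 13 of 13 areas. For cd74, the invariant chain of class II antigen presentation, the values were 739.7 CPM in building 1, 917 in building 2, 858 in control 1 and 720.4 in control 2 in the myelin-rich spots and 435 in building 1, 355 in building 2, 455 in control 1 and 333 in control 2 in the other spots (log2 fold change 1.12, SE 0.107, adjusted p = 1.35e-13, edgeR). Both genes were separated between the spot sets. The other called members rested on far fewer UMIs, with lcp1, a plastin of leukocytes, at 1.39, mrc1, a mannose receptor of macrophages, at 1.52, the myeloid factor spi1 at 1.69 and coro1a, a coronin of leukocytes, at 1.33. The direction was not seen in every male, since building 1 had no UMI of mrc1 or coro1a in the myelin-rich spots, which allows up to 31.7 CPM (3 counts), and control 1 had 4.9 CPM of coro1a in the myelin-rich and 7.27 CPM in the other spots. The leukocyte phosphatase ptprc and the microglial growth factor receptor csf1r were not called. For csf1r the log2 fold change was 0.73 (SE 0.468), and ptprc had 2.57 to 11.1 CPM in the myelin-rich spots and 5.74 to 8.29 CPM in the other spots. The summed level of the list ran from 1870.4 to 2557 CPM in the myelin-rich spots and from 1002 to 1124 CPM in the other spots, and the part of microglia in the other differences was not tested.

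Radial glia, the stem cell and astrocyte-like glia of fish brains, showed no common direction. Of 11 tested genes, 2 were higher and 2 lower (36.4%, against 4.62% of all genes), with a median of 0.13. The intermediate filament gene gfap was higher, at 137 CPM in building 1, 127 in building 2, 191 in control 1 and 121 in control 2 in the myelin-rich spots and 83.7 in building 1, 82.2 in building 2, 92.2 in control 1 and 77.7 in control 2 in the other spots (log2 fold change 0.80, SE 0.152, adjusted p = 0.000111, edgeR). The fatty acid binding gene fabp7 was lower, at 211 CPM in building 1, 211 in building 2, 221 in control 1 and 303 in control 2 in the myelin-rich spots and 439.9 in building 1, 315 in building 2, 412 in control 1 and 448 in control 2 in the other spots (log2 fold change -0.65, SE 0.121, adjusted p = 7.55e-05, edgeR). Neither gene overlapped between the sets. The ortholog of GRIA4, a glutamate receptor subunit gene, had a log2 fold change of -1.01 (SE 0.115), and s100b, a calcium-binding protein gene, had 0.32 (SE 0.0995) and lost its call in most alternatives. Vessel and pericyte genes gave 1 call of 8, higher (12.5%, against 3.04% of all genes), rgs5a, a pericyte regulator of G-protein signalling. It stood at 91.3 to 148 CPM in the myelin-rich spots and 49.2 to 83.5 CPM in the other spots (log2 fold change 0.93, SE 0.163), and all 8 tested members lay above 0, with a median of 0.56. Of the tested blood (1), fibroblast (3) and cell stress and metabolic support (2) genes, none was called.

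Genes of axons and synapses were looked up in the same way. Of 6 tested genes of axons and the node of Ranvier, 2 were higher (33.3%, against 3.04% of all genes) and 0 lower. The neurofilament gene nefm had 84.5 CPM in building 1, 48.9 in building 2, 83.3 in control 1 and 74.3 in control 2 in the myelin-rich spots and 41.2 in building 1, 32.4 in building 2, 34.3 in control 1 and 30.4 in control 2 in the other spots, a log2 fold change of 1.08 (SE 0.205, adjusted p = 0.000127, edgeR). For cntn1, an adhesion protein of the axon beside the node, the values were 359 CPM in building 1, 323 in building 2, 206 in control 1 and 295 in control 2 in the myelin-rich spots and 196 in building 1, 191 in building 2, 177 in control 1 and 179 in control 2 in the other spots (log2 fold change 0.72, SE 0.124, adjusted p = 2.09e-05, edgeR). The sets did not overlap for either gene. The heavy neurofilament gene nefh and the node proteins nfasc and sptbn4 lay between -0.01 and 0.04, with standard errors of 0.139 to 0.235. Of 11 synapse genes, vamp1, a vesicle fusion gene, was higher at 1.00 (SE 0.184) and shank1, a postsynaptic scaffold gene, was lower at -0.57 (SE 0.18, adjusted p = 0.0473, edgeR), together 18.2% of the list against 4.62% of all genes, with a list median of 0.00. For snap25 the log2 fold change was 0.03 (SE 0.0722). None of the 4 tested transmitter genes was called, with slc17a6, the glutamate transporter of excitatory neurons, at -0.17 (SE 0.107) and gad2, which makes GABA, at 0.12 (SE 0.112). Orthologs of the neuron marker SLC17A7 are not on that list. The per-male log2 ratios of LOC101482485 averaged -0.07 and those of LOC101484681 averaged -1.27. For LOC101484681 they ran from -2.30 in building 1 to -0.003 in control 2, and no test of either is given here.

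Genes of the pallium, the dorsal telencephalon, were lower in the myelin-rich spots where they were called. Of 3 tested genes 2 were lower (66.7%, against 1.59% of all genes), eomesa at a log2 fold change of -0.85 (SE 0.153, adjusted p = 4.08e-05, edgeR) and neurod6b at -0.94 (SE 0.216, adjusted p = 0.00203, edgeR), both transcription factors of excitatory neurons. For eomesa the ranges were 66.9 to 190.2 CPM in the myelin-rich spots and 183 to 282 CPM in the other spots, with lower values in every male. For neurod6b building 1 went the other way, with 200.8 CPM in the myelin-rich spots and 91.0 CPM in the other spots. The third, bhlhe22, was at -0.02 (SE 0.135). Of 7 subpallial genes, six3 was lower at -0.61 (SE 0.162) and nkx2-1, a factor of the ventral subpallium, was higher at 1.00 (SE 0.265). Together they were 28.6% of the list, against 4.62% of all genes. With capture areas as samples nkx2-1 was at -0.012. Over the spots with a UMI of either list, 37.4% of 281 myelin-rich spots and 53.7% of 5604 other spots held more pallial than subpallial UMIs. Building 2 gave 134 of the 330 myelin-rich spots. As means over the capture areas of each male, the shares were 61.3% in building 1, 21.0% in building 2, 38.6% in control 1 and 49.5% in control 2 for the myelin-rich spots, against 52.4% in building 1, 51.2% in building 2, 48.6% in control 1 and 63.4% in control 2 for the other spots, so building 1 went the other way. The log2 ratio of pallial to subpallial UMIs, in the myelin-rich minus the other spots, averaged -0.18 ± 1.27 (SD, n = 4 males, exact sign-flip permutation test, two-sided p = 0.75). It was lower in 10 of 13 capture areas, so no shift could be shown over the males.

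The 10 genes with the lowest fold change under the same rule were LOC101475060, the SLC25A23 ortholog, gem, LOC101480240, LOC101484787, LOC101482336, kit, LOC101465999, LOC101478163 and gnrh1. Their log2 fold changes ran from -2.22 to -1.27. The 4 with a name are a mitochondrial carrier gene (SLC25A23), a small GTPase (gem), a receptor tyrosine kinase (kit) and the gonadotropin-releasing hormone precursor (gnrh1). For gem the myelin-rich spots had 10.6 CPM in building 1, 3.86 in building 2, 24.5 in control 1 and 22.3 in control 2, against 42.7 in building 1, 37.2 in building 2, 54.0 in control 1 and 54.2 in control 2 in the other spots (log2 fold change -1.72, SE 0.308, adjusted p = 3.71e-05, edgeR). For kit the myelin-rich spots had 0 to 14.7 CPM, with 0 in building 1, and the other spots 23.0 to 51.9 CPM (log2 fold change -1.41, SE 0.345, adjusted p = 0.00474, edgeR). Both were lower in all 13 capture areas and did not overlap between the sets. Areas without a UMI in their myelin-rich spots count as lower, as that of building 1 does for kit, so the 13 overstates the agreement. Levels of gem and kit in the myelin-rich spots rest on 21 and 17 UMIs. The 0 of kit in building 1 allows up to 31.7 CPM (3 counts), so no difference was detectable in that male.

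Myelin is rich in cholesterol, and the genes that make it were measured in the same spots. None of 13 tested genes of cholesterol synthesis was called, and their median log2 fold change was -0.05, beside -0.03 over all genes. The isomerase gene idi1 was at 21.1 to 63.7 CPM in the myelin-rich spots and 53.6 to 71.1 CPM in the other spots, and srebf2, the regulator of the pathway, at 37.1 to 78.4 CPM in the myelin-rich spots and 76.9 to 95.2 CPM in the other spots. The log2 fold change of srebf2 was -0.50 (SE 0.194, adjusted p = 0.159, edgeR), and that of lss, which closes the sterol rings, was 1.83 (SE 0.699) on 9 UMIs. Of 12 genes of sphingolipid and fatty acid synthesis, elovl7, which lengthens fatty acids, was higher (8.33%, against 3.04% of all genes). It was at 10.6 CPM in building 1, 15.4 in building 2, 9.81 in control 1 and 26.0 in control 2 in the myelin-rich spots and 3.08 in building 1, 4.64 in building 2, 2.71 in control 1 and 3.26 in control 2 in the other spots (log2 fold change 2.31, SE 0.449, adjusted p = 0.00017, edgeR), with no overlap on 29 UMIs. The elovl7 levels of building 1 and control 1 in the myelin-rich spots rest on 1 and 2 UMIs, so no difference can be read in those males. The other 11 were not called, among them fasn, the fatty acid synthase gene, at 0.01 (SE 0.165) and psap, the saposin precursor, at 0.22 (SE 0.0971).

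The study also lists castle-divergent genes, which lie in a genome region where castle-building and pit-digging lineages differ and which also differ between castle builders and rock-dwelling species without bowers. Of 165 such genes 84 were tested here, and 4 were higher and 1 lower (5.95%, against 4.62% of all genes), with a median of -0.05. The higher ones were mal2, the orthologs of HAPLN2 and CD22, and tshz1, a zinc finger transcription factor. HAPLN2 encodes a matrix link protein of the node of Ranvier in mammals, and its ortholog had 4.9 to 15.4 CPM in the myelin-rich spots and 0.441 to 1.4 CPM in the other spots (log2 fold change 3.41, SE 0.586, on 19 UMIs). The CD22 ortholog, a lectin gene of the same immunoglobulin superfamily as mag, was at 1.75 (SE 0.423) and tshz1 at 0.80 (SE 0.156). The factor zfpm2 was lower in 13 of 13 areas, at 84.5 CPM in building 1, 36.0 in building 2, 39.2 in control 1 and 26.0 in control 2 in the myelin-rich spots, against 143 in building 1, 63.0 in building 2, 146 in control 1 and 96.7 in control 2 in the other spots (log2 fold change -1.25, SE 0.205, adjusted p = 6.14e-06, edgeR). It was lower in every male, although the myelin-rich value of building 1 lay above the other spots of building 2. Of the 12 genes of the module the study singles out, 9 were tested and none was called, with a median of -0.27.

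The myelin-rich spots were shallower than the rest. The log2 ratio of the median UMIs per spot, myelin-rich over other, was -0.90 ± 0.31 (SD, n = 4 males) and below 0 in 12 of 13 capture areas, control 1 area A being the exception. Total UMIs are the denominator of the rate that chose the spots, so no test is given. Features whose ID starts with APK84, 37 in all, took a share of UMIs that was 1.92 ± 0.381 times as high in the myelin-rich as in the other spots (SD, n = 4 males, exact sign-flip permutation test, two-sided), higher in 11 of 13 areas and in every male, and its p-value was the smallest that 4 males can give, which is above 0.05. Without control 2 area A, where the share was 3.38 times as high, the mean was 1.8 ± 0.446. Their part in the other differences was not tested. To compare spots at 1 depth, each was thinned to 1000 UMIs, which 302 of 330 myelin-rich and 6131 of 6294 other spots reached. At that depth cd59 had a UMI in 74.8% of the myelin-rich and 15.4% of the other spots, and unthinned in 90.6% of the myelin-rich and 44.9% of the other spots. For LOC101487221 the thinned shares were 60.3% of the myelin-rich and 10.7% of the other spots. They were 16.9% of the myelin-rich and 2.19% of the other spots for cldnk, and 24.8% of the myelin-rich and 11.9% of the other spots for mag. Genes of leukocytes, which oligodendrocytes should lack, differed among themselves. The thinned shares were 0.662% of the myelin-rich and 0.652% of the other spots for ptprc, and 0.993% of the myelin-rich and 0.897% of the other spots for csf1r. They were 2.32% of the myelin-rich and 0.375% of the other spots for spi1, and 2.32% of the myelin-rich and 1.21% of the other spots for lcp1. The thinned shares pool the spots of all males, and these low ones rest on few myelin-rich spots. For spi1, control 2 had 0% of the myelin-rich and 0.514% of the other spots. The other males were higher in the myelin-rich spots. In the thinned myelin-rich spots ptprc was seen in control 2 alone and csf1r in building 1 and control 1 alone. For apoeb the thinned shares were 67.2% of the myelin-rich and 39.8% of the other spots, and for cd74 52.3% of the myelin-rich and 31.0% of the other spots. The median depth before thinning was 4021.5 UMIs in the myelin-rich and 6983.5 UMIs in the other spots.

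Depth was also matched by comparing each myelin-rich spot with the 5 other spots of its capture area nearest in UMIs. There 285 genes were called, 172 higher and 113 lower. The log2 fold changes were 2.98 for cd59, 3.0 for bcas1, 2.96 for LOC101487221, 2.77 for cldnk and 1.23 for mag, and those of apoeb and cd74 were 0.75 and 0.76. The same direction thus held at matched depth for these genes, with smaller values than in the whole comparison for all but mag.

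Building and control males were then compared within the myelin-rich spots. Of 6639 genes tested, 3 were called (0.0452%), all lower in building males, and 245 had an unadjusted p under 0.05 (edgeR quasi-likelihood test). DESeq2 called 1, and 7 were called with the replicate number as a block. No myelin gene was among the 3. All 11 tested myelin and oligodendrocyte genes had a log2 fold change above 0, building over control, with a median of 0.44, beside -0.01 over all genes, and 0 of 11 were called. Building 1 was nevertheless the lowest of all males for cd59, cldnk, myrf, ugt8, galc, cnp and tmem88b, so their sign rested on building 2. For ugt8 even building 2, at 68.2 CPM, lay below control 1 at 73.5. Plain means over males were lower in building than in control males for ugt8 (34.1 against 55.3 CPM) and galc (26.5 against 27.4 CPM), unlike the fitted sign. For mag and fa2h both building males lay above both control males, and for bcas1 and tppp the groups overlapped. For cd59 the myelin-rich spots had 1099 and 2433 CPM in building 1 and building 2 and 1294 and 1582 CPM in control 1 and control 2, so the groups overlapped, at a log2 fold change of 0.32 (SE 0.317, adjusted p = 0.998, edgeR). For mag the log2 fold change was 0.66 (SE 0.277, adjusted p = 0.998, edgeR), for olig2 0.18 (SE 0.433) and for sox10 0.21 (SE 0.46). With 2 males a group, an exact permutation test of a single value cannot go below p = 0.333. The rates of the 3 chosen genes are therefore given as values only. As means over the capture areas of each male they were 35.9 and 57.0 per 10000 in building males against 42.3 and 60.6 in control males. The last value is 32.2 without control 2 area A. Counts were also summed over the spots of each male, as for the other genes. The sums for mbpa were 1860 and 2777 CPM in building males against 1588 and 1927 CPM in control males. For plp1b they were 877 and 1614 CPM against 1142 and 1058 CPM, and for mpz 856 and 1183 CPM against 858 and 767 CPM. By these sums building 2 was highest for all 3 genes, whereas control 2 was highest by the means over areas.

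The 3 called genes were LOC101485530, rbp4 and LOC101480126. LOC101485530, which has no name in the annotation used here, was at 2969 CPM in building 1 and 3829 in building 2, against 19600.3 in control 1 and 9147 in control 2 in the myelin-rich spots (log2 fold change -2.09, SE 0.329, adjusted p = 0.0412, edgeR). The retinol-binding protein gene rbp4 was at 95.1 CPM in building 1 and 161 in building 2, against 892 in control 1 and 440.1 in control 2 (log2 fold change -2.20, SE 0.362, adjusted p = 0.0412, edgeR). LOC101480126 was at 52.8 CPM in building 1 and 60.4 in building 2, against 181 in control 1 and 310.1 in control 2 (log2 fold change -2.09, SE 0.354, adjusted p = 0.0412, edgeR). The groups did not overlap for these genes, but for LOC101485530 and rbp4 the level of control 1 rested on its area A, where LOC101485530 reached 39243 CPM and rbp4 1822 CPM. That area held 3554 of the 3998 UMIs of LOC101485530 and 165 of the 182 UMIs of rbp4 in the myelin-rich spots of control 1. Without it control 1 had 3915 CPM of LOC101485530 and 149.9 CPM of rbp4, so that control 1 was below building 2 for rbp4 and the groups overlapped. The adjusted p of LOC101485530 was 0.538 by DESeq2. Without control 1 area A the log2 fold change was -0.93 for LOC101485530 and -1.17 for rbp4, neither called, and -2.30 for LOC101480126, which was. For LOC101485530, with area C of each male alone, it was -0.33. Without control 2 area A none of the 3 genes was called (adjusted p = 0.0684 for each, edgeR). The next genes by p-value were ucn, the urocortin peptide gene, and LOC101478779, a pericyte cluster marker of the study, at adjusted p = 0.093 and 0.101 (edgeR). Since building 1 has 1 section, condition and the position of the sections cannot be told apart here.

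**Figure D5:**
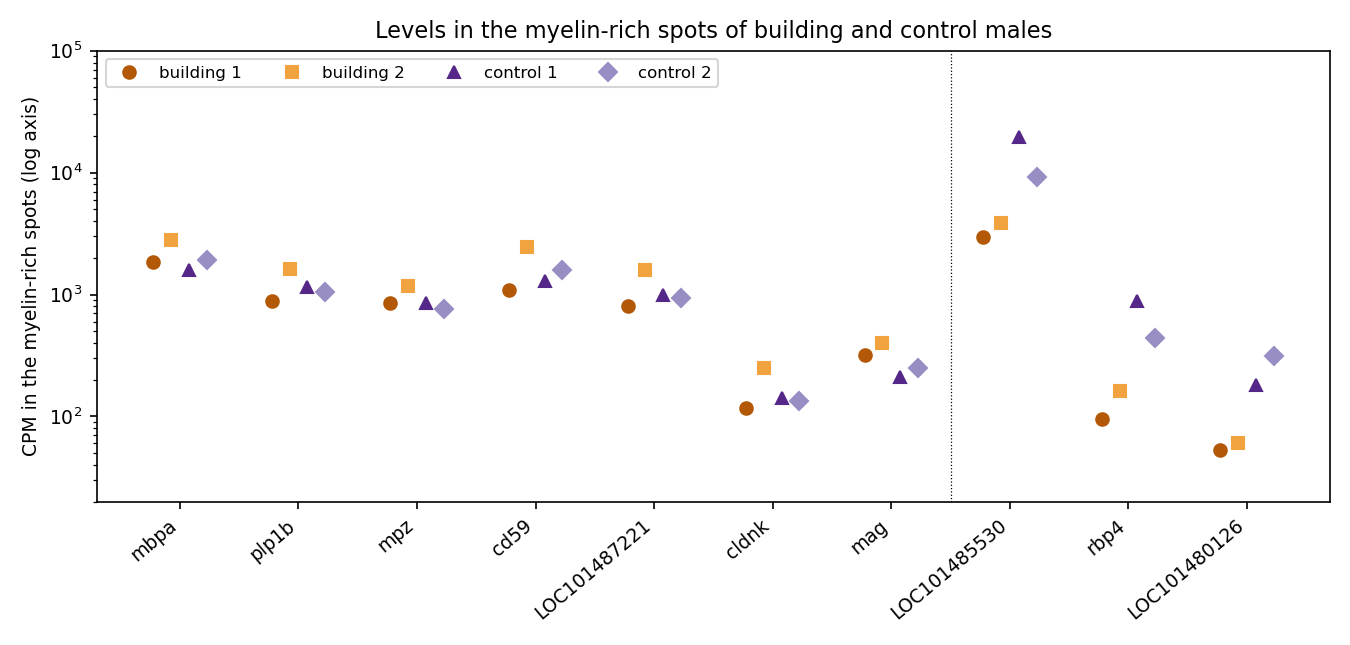
Level in the myelin-rich spots in CPM (y axis, log scale) of oligodendrocyte genes and of the genes with the smallest p in the building against control comparison, with building males left of control males and 1 point per male. The males of the 2 conditions overlap for cd59 and are apart for LOC101485530, rbp4 and LOC101480126.

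Whether the step between myelin-rich and other spots differed with condition was tested over the 8 sums. Of 13469 genes, 32 were called (0.238%), 6 with a larger (0.0445%) and 26 with a smaller (0.193%) step in building males, and none of the 16 tested myelin and oligodendrocyte genes or of the 7 lineage genes was among them. For cd59 the difference in log2 fold change, building minus control, was -0.04 (SE 0.189), for cldnk 0.07 (SE 0.364) and for LOC101487221 -0.31 (SE 0.2). Each of these values lies within 2 standard errors of 0. For mag the difference was 0.76 (SE 0.248, adjusted p = 0.446, edgeR), about 3 standard errors above 0 and not called. The smallest p-values belonged to npff, the neuropeptide FF precursor, and LOC101480579, both named after their values were seen. In the myelin-rich spots npff had 0 CPM in building 1, 678 in building 2, 6138 in control 1 and 1697 in control 2, against 0 in building 1, 202 in building 2, 52.9 in control 1 and 30.4 in control 2 in the other spots, which gives it a fitted log2 fold change of 5.03 over all males, not called in the robust fit (adjusted p = 0.531, edgeR). Building 1 had none in either set, and the values of the other males lay far apart. The level came from few spots, as 5 myelin-rich spots with at least 100 UMIs of npff, in 4 capture areas, held 2534 of its 2693 UMIs in the myelin-rich spots (94.1%), and 6 other spots had as many. The highest spot of all, with 1387 UMIs, was an other spot in building 2 area B. LOC101480579 was high in the same 4 capture areas, with 0 to 4804 CPM in the myelin-rich and 1.54 to 162 CPM in the other spots.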

How the data were processed

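Visium libraries of telencephalon sections from 2 building and 2 control males gave 13 matrices, each for 1 capture area. The authors deposited raw UMI counts per feature and spot, not normalized. Per the labels and the study's methods these were made with Space Ranger 1.3.1 against the M. zebra UMD2a assembly. Counting covers 32471 features, of which 21121 are named by a number only, and 1013 of those have a symbol or human ortholog in the study's tables. Near-identical gene copies may share or lose reads.

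Spots with at least 500 UMIs were ranked as described, counts were summed per male and spot set, and edgeR 4.0.16 (R 4.3.3) was used for all gene tests, with TMM scaling, filterByExpr, the quasi-likelihood F-test, Benjamini-Hochberg adjustment and male as a block where the spot sets of 1 male were compared. The 3 chosen genes were left out of the fit. Values in CPM are counts per 1000000 UMIs of the summed spots. Total UMIs per male were 4634684 and 25126732 in building 1 and 2 and 6142612 and 15875036 in control 1 and 2. With 94631 UMIs in the myelin-rich spots of building 1, 3 counts there are 31.7 CPM. Single values used an exact sign-flip permutation test over the 4 males. The region index added 0.5 to each sum.

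Named genes were all chosen genes, the measured genes of role-based lists and the 10 highest and 10 lowest fold changes among called genes of at least 20 CPM in the higher set with 1 direction in all 4 males and at least 11 of 13 areas. For building against control the 5 smallest p-values were named. The myelin genes, the lists and the tests were chosen with earlier results of these data known. Alternatives were DESeq2 1.42.0, other TMM weights, no filter, the highest 2.5% or 10% of spots, a minimum of 1000 UMIs, thinning to 1000 UMIs (seed 11), the 5 nearest spots in depth, ranks of the 3 rates, capture areas in limma 3.58.1, no block, and leaving out males or areas. In the gene tests after thinning, the myelin-rich spots were chosen anew from the thinned counts. In counts simulated for the spot set comparison, 86.1% of 4-fold and 54.3% of 2-fold changes were recovered, with 4 false calls among 12150 genes. For building against control in the myelin-rich spots, 77.6% and 8.65% were recovered, with 1 false call among 6258. For the difference between conditions in the step, 44.6% and 11.7% were recovered, with 2 false calls among 13044. Whether these values hold where the males lie far apart was not tested. Spot positions and images were not used here, and each male is 1 animal. Each SE beside an edgeR log2 fold change was computed from that change and the F statistic, so it restates the test. Errors and p-values rest on a spread between sums of males that is largely pooled over genes. A gene had 3 residual degrees of freedom of its own and borrowed 69.5 in the spot set comparison, had 2 and borrowed 14.7 in building against control, and took the pooled spread alone in the test of the difference between conditions. For genes whose males lie far apart they are too small, so robust estimation was added as an alternative after seeing the data.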

Additional observations from a re-analysis of the deposited data

Results flagged for a closer look

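Capture area A of control 2 lay far above the 7 other control areas in its myelin-rich spots. Its rate of the 3 chosen genes was 145.8 per 10000 UMIs, with the next control area at 55.5. The same spots had 7687 CPM of cd59, 692.5 CPM of cldnk, 5852 CPM of LOC101487221 and 796 CPM of mag, and their share of UMIs from features whose ID starts with APK84 was 3.38 times that of the other spots. For LOC101485530, building 2 area A was apart from the 4 other building areas at 7282 CPM, and control 1 area A from the 7 other control areas at 39243 CPM. For rbp4, control 1 area A was apart at 1822 CPM. Of 26 groups of values looked at, 9 held such a capture area, where chance gives about 1 in 20 for a single group. The groups read the same building and control areas on related measures. They are not independent, so the count cannot show an excess over chance. No cause was tested.

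The test of the difference itself (edgeR interaction term) called 32 genes whose step between myelin-rich and other spots differed between building and control males. The values are differences in log2 fold change, building minus control. This fit uses a spread pooled over all genes, so the errors are too small for genes whose males lie far apart. In the robust fit 31 genes were called, 29 of them among the 32, and LOC101485530 (adjusted p = 0.561), sst (adjusted p = 1) and crh (adjusted p = 0.0979, edgeR) were not. Both npff (-4.50, SE 0.231) and LOC101480579 (-4.71, SE 0.235) had the most negative ones and come from few spots. By DESeq2 the adjusted p of npff in this test was 1 and that of LOC101480579 was 1.38e-20. The aromatase gene cyp19a1 (LOC106675461), which makes estradiol in radial glia, was at -2.68 (SE 0.332). That value rests on control 2, with 227 CPM in the myelin-rich and 42.6 CPM in the other spots, whereas control 1 had 49.0 CPM in the myelin-rich and 61.6 CPM in the other spots and both building males were lower in the myelin-rich spots. The 5 genes with the smallest p in building against control were here too, with LOC101485530 at -1.78, rbp4 at -1.82, LOC101480126 at -1.74, ucn at -1.86 and LOC101478779 at -2.02. Chosen after their values were seen, sst (LOC101485677) was at 1.54, crh at 1.1, slc6a3 at 2.46, the PNOC ortholog at 1.57, lamp5 at -1.50, adcyap1 at -1.27, LOC101477647 at -3.06 and LOC101483654 at -3.66.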

How the results depend on the processing

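Of 83 named genes called in the myelin-rich comparison, 24 were called in the same direction under every alternative that gave a value. Of 13 called genes of the oligodendrocyte lists 11 were, and none of their 248 values under the alternatives was below 0. The held-out tests of mpz, plp1b and mbpa were called in every alternative run for them. These were the highest 2.5% or 10% of spots, a minimum of 1000 UMIs, thinning to 1000 UMIs and leaving out 1 male. The held-out tests were not run with DESeq2, the nearest spots in depth, capture areas as samples or no block. The count of 571 genes became 271 with DESeq2, 335 with the highest 2.5% of spots, 73 after thinning to 1000 UMIs, 285 against the nearest spots in depth, 87 with capture areas as samples, and 267 (without building 2) to 527 (without building 1) with 1 male left out. The log2 fold change of nkx2-1 became -0.012 with capture areas as samples. The 3 genes of building against control became 1 with DESeq2, 26 with no filter, 0 with the highest 10% and 8 with the highest 2.5% of spots, 5 after thinning, 0 with ranks, 0 with area C alone, and 3 to 51 with 1 male left out. The 32 genes of the interaction test became 13 with DESeq2 and 8 after thinning, and thinning turned crh to -0.045 and adcyap1 to 0.11. DESeq2 gave no adjusted p for 10445 of the 13469 genes of that test, so its count covers fewer genes. Chosen after seeing the data, leaving out control 1 area A gave 1 and 14 genes in those comparisons, and leaving out control 2 area A gave 0 in the first. Also chosen after seeing the data, the robust fit gave 637, 3 and 31 genes, and 9 of the 83 named genes lost their call in the first, none of them on the oligodendrocyte lists. The log2 ratio of median UMIs per spot was -0.53 with ranks. Without the male block, 167 genes were called in the spot set comparison. The study's methods describe 2 size-matched pairs, but neither they nor the labels say that a replicate number marks a pair. Deviations of building 1 and control 1 from the means of their conditions correlated at 0.0482 over 6639 genes. With 2 males a condition, building 2 and control 2 give the same value, so it cannot show whether the numbers mark pairs. With the replicate block 7 genes were called in building against control. Depth limits genes such as ugt8, kit and olig1, whose levels in the myelin-rich spots rest on few UMIs. The causes of these changes were not tested.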

Other observations

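Some genes outside the lists, chosen after their values were seen, were also called in the comparison of myelin-rich with other spots. Among genes tied to myelin in other vertebrates, cldn19, a claudin of Schwann cell myelin in mammals, was at 106 CPM in building 1, 257 in building 2, 127 in control 1 and 184 in control 2 in the myelin-rich spots, against 26.9 in building 1, 30.2 in building 2, 21.7 in control 1 and 20.4 in control 2 in the other spots. Its log2 fold change was 2.96 (SE 0.173, adjusted p = 3.85e-24, edgeR), with higher values in 13 of 13 capture areas. The gene sh3tc2, whose loss causes a demyelinating neuropathy in humans, was at 2.54 (SE 0.514) on 22 UMIs. The ortholog of AATK, a kinase gene of the nervous system, was at 2.15 (SE 0.296), and 1 of 2 orthologs of QKI, an RNA-binding protein needed for myelination in mice, was called at 1.2 (SE 0.183), while the other had 0.59 (adjusted p = 0.0536, edgeR). Some genes known from myeloid cells were called higher in the fit, with the receptor mertk, which serves the uptake of dying cells and debris, at 1.80, its relative axl at 1.27, the myeloid factor irf8 at 1.82, the kinase hck at 1.71, fcer1g at 1.13, srgn at 1.27 and gpnmb at 1.38. Their levels were low, from 0 to 19.6 CPM for mertk to 68.2 to 103 CPM for srgn in the myelin-rich spots over the 4 males. Of these, irf8 and srgn were higher in all 4 males. Building 1 had no UMI of axl, mertk or gpnmb in the myelin-rich spots, which allows up to 31.7 CPM (3 counts), and in control 1 axl, hck and fcer1g had lower values in the myelin-rich than in the other spots, on few UMIs.

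A few genes of neuropeptides and granins, also chosen after their values were seen, varied widely between males. The somatostatin gene sst had a fitted log2 fold change of 1.33, npy 1.16 and crh 1.55, and none of them was called in the robust fit (adjusted p = 0.537, 0.536 and 0.387, edgeR). In control 2, sst was at 746 CPM in the myelin-rich and 960.3 CPM in the other spots and crh at 92.8 CPM in the myelin-rich and 92.4 CPM in the other spots. The granin gene scg2 was at 1.38 (SE 0.152), with building 1 the other way at 31.7 CPM in the myelin-rich and 74.9 CPM in the other spots. For npy, values were 951 CPM in building 1, 11682 in building 2, 3201 in control 1 and 880.1 in control 2 in the myelin-rich spots and 691 in building 1, 2759 in building 2, 999 in control 1 and 880.3 in control 2 in the other spots, so building 2 was above the other males in both sets and control 2 was alike in both. Lower in all 4 males were the granin genes chga at -0.50 (SE 0.108) and chgb at -0.77 (SE 0.136) and the PNOC ortholog at -0.98 (SE 0.201), and the tachykinin gene tac1 was at -0.86 (SE 0.245), lower in 3 of 4 males. Lower in all 13 capture areas were nfix, a nuclear factor I gene, at -1.04 (SE 0.136), and the glutamate transporter gene slc1a2 at -0.43 (SE 0.0894).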
